A study of Mus musculus with 9 samples.

Results

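Genes of cellular iron handling were examined in RNA-seq counts from mouse mammary tumours, 9 in all: *Cp*, *Tfrc*, *Slc11a2*, *Steap3*, *Fth1*, *Ftl1*, *Slc40a1*, *Ireb2* and *Fbxl5*. They were named for their roles in iron uptake, storage, export, oxidation and control by the iron regulatory proteins, and all 9 were found among the 14108 genes counted. The set was chosen by role while the gene counts of the same tumours, in all 3 models, were already known. The values of the 9 genes are therefore given as a description, without p-values.

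The data come from 9 primary tumours, 3 of each model. HR1 is a non-metastatic line from a mammary tumour of a transgenic mouse expressing mutant PIK3CA under the CAG promoter. LM1 and LM9 are each 1 cell line, grown out of lung metastases of HR1 cells in which a *piggyBac* transposon had been mobilised, so LM1 and LM9 descend from HR1 and share its transgene. In the study HR1 is the name of the parental line, and the cells engineered with the transposon are named apart from it. For each tumour, 250000 cells in Matrigel and PBS were placed in the mammary fat pad of female NOD/SCID mice (NOD.CB17-Prkcd<scid>/J) of 4 to 8 weeks. The tumours were taken out at under 1500 mm3 and their GFP+ cells sorted. The study compares the models by *Nfib*, a transcription factor that is a candidate driver of metastasis, with HR1 as the low class and LM1 and LM9 as the high class.

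Iron enters most cells bound to transferrin through the transferrin receptor. It is reduced by STEAP3 in the endosome and leaves the endosome through DMT1, the product of *Slc11a2*. Ferritin, a shell of heavy (*Fth1*) and light (*Ftl1*) chains, stores what is not used, and ferroportin (*Slc40a1*) is the iron exporter. Ceruloplasmin (*Cp*) is a copper ferroxidase that oxidises iron as it leaves the cell. When iron is scarce, the iron regulatory proteins IRP1 (*Aco1*) and IRP2 (*Ireb2*) bind iron-responsive elements, which are short hairpins in untranslated regions. Bound at the 5′ end of ferritin or ferroportin mRNA they block translation, and bound at the 3′ end of *Tfrc* mRNA they slow its decay. FBXL5 marks IRP2 for degradation when iron is plentiful.

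The hairpins are shown because they are what the control acts on. They were searched in GENCODE M21 transcripts of GRCm38 (the mm10 assembly) on the transcript strand only, as a bulged C, any 5 bases and the loop CAGTGN, where the 5 bases on each side of the loop had to pair, G with T included. Capitals mark the bulged C and the loop, and each sequence runs 5′ to 3′ along the mRNA.

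Fth1, 5′ UTR, chr19:9982732-9982760, plus strand: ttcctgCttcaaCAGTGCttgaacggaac
Ftl1, 5′ UTR, chr7:45459779-45459807, minus strand: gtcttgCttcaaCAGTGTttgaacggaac
Slc40a1, 5′ UTR, chr1:45925465-45925493, minus strand: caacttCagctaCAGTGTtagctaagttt
Tfrc, 3′ UTR, chr16:32631219-32631247, plus strand: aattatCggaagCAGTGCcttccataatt
Tfrc, 3′ UTR, chr16:32631598-32631626, plus strand: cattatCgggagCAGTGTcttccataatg
Tfrc, 3′ UTR, chr16:32631663-32631691, plus strand: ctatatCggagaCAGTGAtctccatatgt
Tfrc, 3′ UTR, chr16:32631710-32631738, plus strand: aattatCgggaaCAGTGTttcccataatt
Slc11a2, 3′ UTR, chr15:100395153-100395181, minus strand: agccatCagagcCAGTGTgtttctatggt

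The *Slc11a2* hairpin was found only when 1 unpaired base or pair was allowed in the stem, and it lay in 1 of the 2 basic transcripts of that gene. The hairpins of *Tfrc* and *Ftl1* also lay in 1 of 2 basic transcripts each, that of *Fth1* in 3 of 3 and that of *Slc40a1* in the only 1. With the full stem, 4 of the 9 genes held a hairpin in a UTR, against 154 of 21875 coding genes (0.704%). With the relaxed stem it was 5 of 9 against 1216 genes (5.56%). No such letters were found in the UTRs of *Cp*, *Steap3*, *Ireb2* and *Fbxl5*. The counts are sums over the exons of a gene, so they do not separate transcripts of *Slc11a2*, *Tfrc* or *Ftl1* with and without the hairpins, and they do not measure translation.

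Total counts were 32393958 to 46681945 per tumour. Counts were scaled by TMM factors and are given as CPM, the count of a gene relative to the scaled total of its tumour. One tumour stands apart. *Nfib* was at 1343 CPM in the tumour labelled HR1 replicate 1, against 23.9 and 18.3 CPM in HR1 replicates 2 and 3 and 421 to 791 CPM in the 6 LM tumours, which goes against the class of its model. Over all genes, the log2 CPM of the HR1 tumours correlated at r = 0.88 to 0.961 with each other, against 0.986 to 0.991 within LM1 and LM9. Fold changes against HR1 are therefore also given without HR1 replicate 1. The labelled breast cancer cells were low in 2 defining epithelial markers, with *Epcam* at most 4.49 CPM and *Cdh1* at most 1.2 CPM in any tumour, while *Col1a1* was at least 6360 CPM. *Krt14* was higher, at 152 to 175 CPM in LM1, 12.2 to 15.4 CPM in LM9 and 1.56 to 109 CPM in HR1. *Krt8*, *Krt7*, *Cldn3* and *Cldn4* were not analysed here. The labels do not say whether the tumours of a model came from separate cultures of cells, so errors measure the spread between tumours only.

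Ferritin transcripts were by far the most abundant of the 9, and ceruloplasmin and ferroportin set the models furthest apart. Levels between genes were compared as CPM per kb of exon. In HR1 the order of the mean levels was *Fth1* (2978 ± 952.5 CPM per kb, SD, n = 3), *Ftl1* (1159 ± 310.7), *Steap3* (31.4 ± 23.7), *Slc11a2* (19.7 ± 10.7), *Fbxl5* (17.2 ± 2.44), *Tfrc* (11.3 ± 4.76), *Slc40a1* (10.1 ± 2.68), *Cp* (9.125 ± 2.42) and *Ireb2* (9.06 ± 1.37). Beyond ferritin, neighbours in this order lay within the larger of their SDs, except for *Fbxl5* and *Tfrc*. In LM1 *Cp* and *Slc40a1* were last, at 0.258 ± 0.00786 and 0.2345 ± 0.0306 CPM per kb, with *Steap3* next at 5.28 ± 0.905. In LM9 *Slc40a1* alone was last, at 0.0328 ± 0.0168 CPM per kb, and *Cp* came before it at 6.18 ± 1.62.

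**Figure D1:**
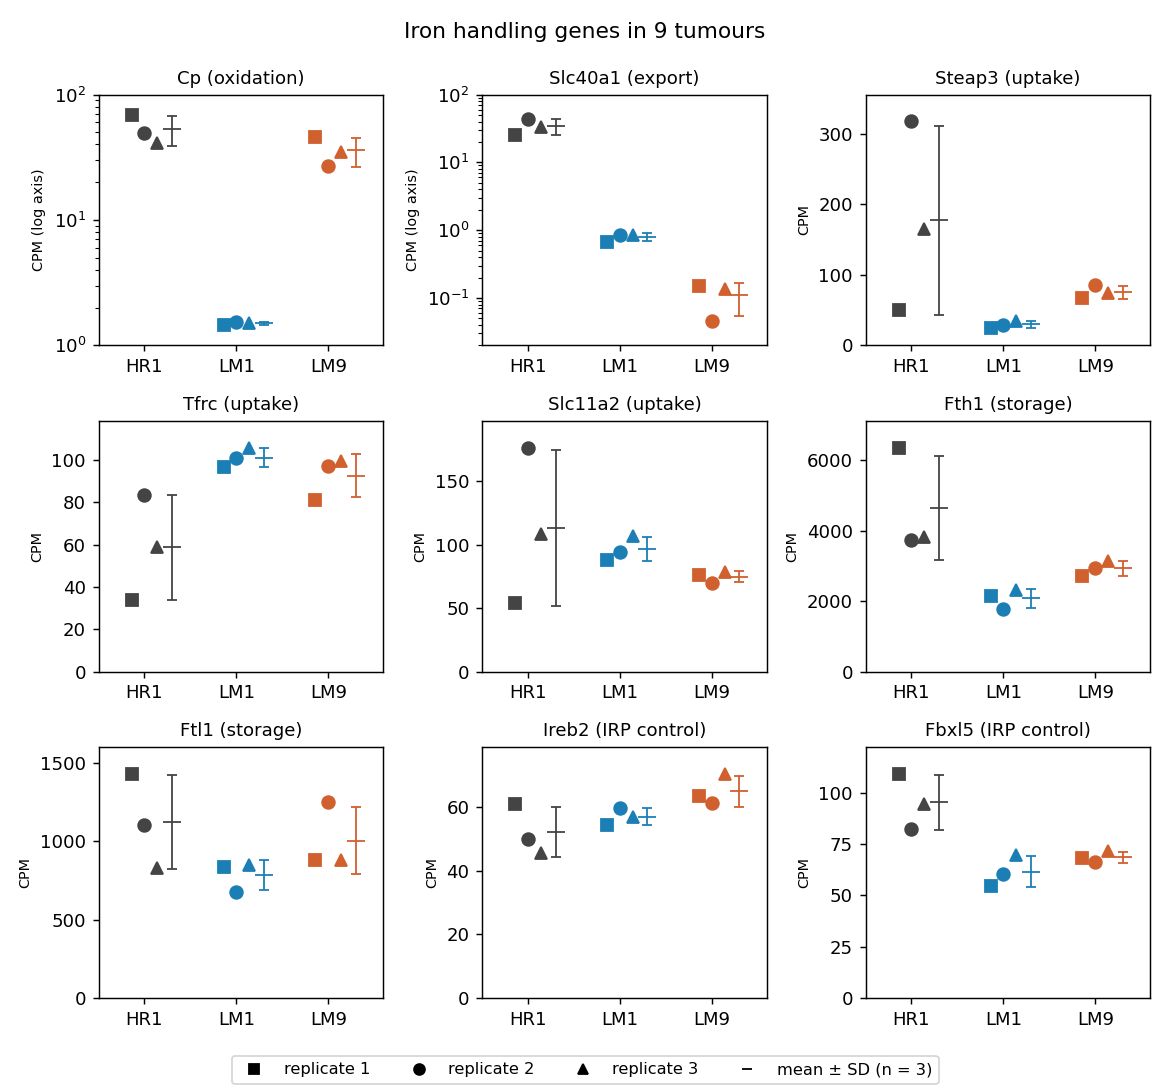
CPM of the 9 iron handling genes in each tumour, with 1 panel per gene, the model on the x axis and CPM on the y axis (log axis for *Cp* and *Slc40a1*, from 0 otherwise). Symbols are the 3 replicates and bars are means ± SD (n = 3): *Cp* is low in LM1 only (1.45 to 1.54 CPM), *Slc40a1* is low in both LM models (0.0458 to 0.861 CPM), and HR1 replicate 1 is the lowest HR1 tumour for *Tfrc*, *Slc11a2* and *Steap3* and the highest for *Cp* and both ferritin chains.

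Ceruloplasmin was nearly lost from LM1 and present in LM9. *Cp* was at 68.3, 49.8 and 40.8 CPM in HR1 replicates 1, 2 and 3, at 1.45, 1.54 and 1.5 CPM in the LM1 tumours, and at 45.7, 27.0 and 34.9 CPM in the LM9 tumours. All LM1 tumours were below all others, and the HR1 and LM9 tumours overlapped, so the order was HR1 and LM9 above LM1, with HR1 and LM9 not set apart beyond their spread. The log2 fold change was −5.14 ± 0.29 (SE) for LM1 versus HR1 and −4.91 without HR1 replicate 1. LM9 was above LM1 by 4.58 ± 0.28. LM9 differed from HR1 by −0.56 ± 0.24, and by −0.33 without HR1 replicate 1. From the CPM, HR1 was 35.4-fold above LM1, with a 95% interval of 30.8 to 40.9 that covers counting error only (196 counts over the 3 LM1 tumours), and 30.3-fold without HR1 replicate 1. The mean of the LM models, −2.85 ± 0.20 against HR1, stands for neither of them.

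The exons of *Cp* (chromosome 3, 19957054 to 20009145, plus strand) share 108 bases with *Hps3* on the other strand. The strand setting of the counting is not given in the sources used here, so reads there cannot be assigned. *Hps3* was at 8.8 to 18.1 CPM over the 9 tumours.

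Ferroportin was low in both metastatic models, and lowest in LM9. *Slc40a1* was at 25.6, 43.6 and 32.8 CPM in HR1, at 0.672, 0.861 and 0.838 CPM in LM1, and at 0.15, 0.0458 and 0.135 CPM in LM9. The models did not overlap, in the order HR1, LM1, LM9. The LM1 tumours had 32, 38 and 33 counts and the LM9 tumours 7, 2 and 6. HR1 was 43.0-fold above LM1 (counting interval 35.5 to 52.7, and 48.3-fold without HR1 replicate 1). It was 308-fold above LM9 (187 to 550, and 346-fold without HR1 replicate 1). The fitted log2 fold change versus HR1 was −5.42 ± 0.36 in LM1 and −8.22 ± 0.43 in LM9. LM9 was below LM1 by −2.80 ± 0.39. Of the 2 genes of iron release, both were low in LM1, while in LM9 *Cp* overlapped with HR1 and *Slc40a1* was at its lowest. *Slc40a1* lies on chromosome 1, 45908068 to 45926523, minus strand.

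Macrophages are rich in ferroportin, and the sort for GFP+ cells is meant to leave them out. Leukocytes and macrophages were followed by 14 markers, all of them counted. Their summed level was 689, 1110 and 253 CPM in HR1 replicates 1, 2 and 3, 216 to 242 CPM in LM1 and 214 to 265 CPM in LM9, where *Cd68* alone gave 107 to 138 CPM. Without *Cd68*, a choice made after the values were seen, the 13 others summed to 665, 984 and 211 CPM in HR1, 198 to 226 CPM in LM1 and 78.4 to 131 CPM in LM9, so that HR1 replicate 3 lay within LM1 and above LM9. Of the 14, 9 were lower in LM1 and LM9 versus HR1 and none higher (edgeR, adjusted p under 0.05). The part of these cells in *Slc40a1* and *Cp* was not tested. Fibroblast markers moved the same way, with a summed level of 23400 to 35300 CPM in HR1, 10400 to 13800 in LM1 and 8980 to 10500 in LM9 and 9 of 10 lower, and their part was not tested. The 6 epithelial markers counted summed to 7.55 to 121 CPM in HR1, 158 to 181 in LM1 and 14.4 to 18 in LM9. The 7 endothelial markers counted summed to 5.56 to 29.7 CPM in HR1 and 164 to 291 CPM in the LM tumours, where the sum was mainly *Cdh5* and *Pecam1* was at most 1.25 CPM. In LM1 and LM9 versus HR1, 2 of these 7 were higher and 5 lower, and of the 6 epithelial markers 2 were lower. In bulk samples fewer cells of a type and less RNA per cell cannot be told apart.

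**Figure D2:**
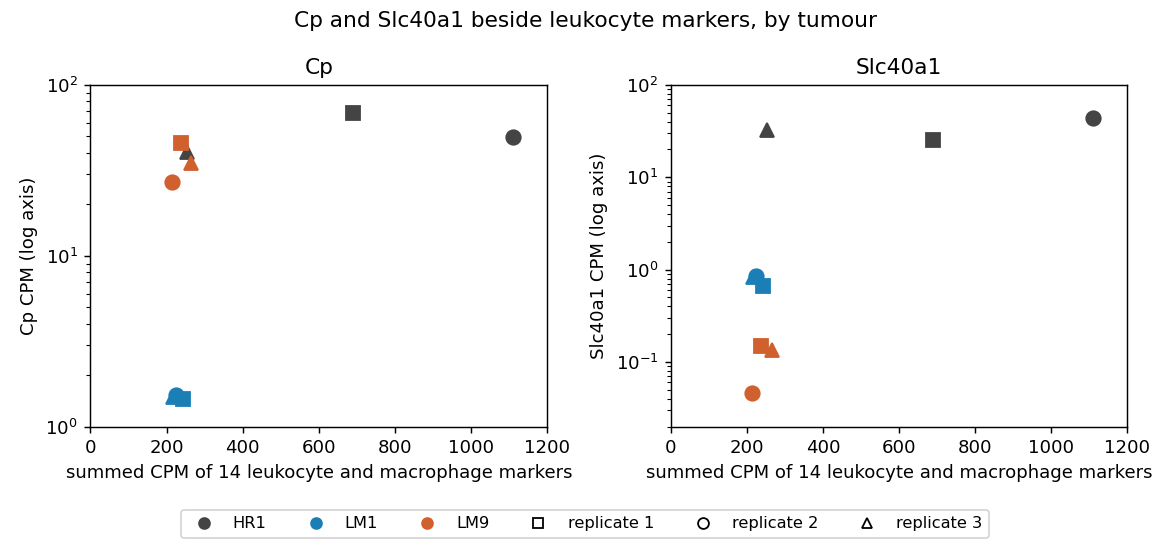
CPM of *Cp* (left) and *Slc40a1* (right) on a log axis against the summed CPM of 14 leukocyte and macrophage markers, 1 point per tumour, coloured by model and shaped by replicate. HR1 replicates 1 and 2 have the highest marker sums (689 and 1110 CPM). HR1 replicate 3 is at 253 CPM and the LM tumours at 214 to 265 CPM, of which *Cd68* makes up 107 to 138 CPM in LM9.

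Of *Steap3*, *Tfrc* and *Slc11a2*, the ferrireductase *Steap3* spanned the widest range. It was at 50.3, 317 and 164 CPM in HR1, at 24.99, 29.2 and 35.2 CPM in LM1 and at 66.8, 84.9 and 74.4 CPM in LM9. LM1 was below both other models, and the LM9 tumours lay between HR1 replicate 1 and HR1 replicates 2 and 3. LM1 versus HR1 gave a log2 fold change of −2.57 ± 0.54 (−3.01 without HR1 replicate 1), LM9 versus HR1 −1.23 ± 0.52 (−1.67) and LM9 versus LM1 1.34 ± 0.52. Without HR1 replicate 2, the highest tumour, LM1 versus HR1 came to −1.85 and LM9 versus HR1 to −0.51. Without HR1 replicate 1, all 6 LM tumours were below HR1.

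The transferrin receptor went the other way. *Tfrc* was at 33.7, 83.2 and 59.0 CPM in HR1, at 96.5, 101 and 106 CPM in LM1 and at 81.1, 97.3 and 99.3 CPM in LM9. LM1 was above HR1 in every tumour, and LM9 replicate 1 lay just below HR1 replicate 2. The log2 fold change versus HR1 was 0.78 ± 0.28 for LM1 and 0.66 ± 0.28 for LM9, and it was 0.52 and 0.38 without HR1 replicate 1, which was the lowest tumour. LM9 and LM1 differed by −0.13 ± 0.28.

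*Slc11a2*, the endosomal iron transporter, was at 53.9, 176 and 108 CPM in HR1, at 88.3, 94.5 and 107 CPM in LM1 and at 76.4, 69.7 and 78.2 CPM in LM9. The LM tumours lay inside the HR1 range, and below HR1 replicates 2 and 3. LM1 and LM9 versus HR1 came to −0.41 ± 0.29, to −0.74 without HR1 replicate 1, and to 0.07 without HR1 replicate 2, so that 1 tumour sets the sign. Its exons (chromosome 15, 100387898 to 100425072, minus strand) share 402 bases with *Gm5475* on the other strand, which was not among the genes counted.

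The ferritin heavy chain, which holds the ferroxidase site of the shell, was lower in both metastatic models. *Fth1* was at 6352, 3737 and 3829 CPM in HR1, at 2135, 1784 and 2328 CPM in LM1 and at 2721, 2935 and 3149 CPM in LM9. The 3 models did not overlap. The log2 fold change was −1.16 ± 0.23 for LM1 and −0.66 ± 0.22 for LM9 versus HR1. HR1 replicate 1 was the highest tumour, and without it these were −0.85 and −0.36. LM9 was above LM1 by 0.50 ± 0.22.

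The light chain differed less. *Ftl1* was at 1431, 1104 and 830.8 CPM in HR1, at 835, 678 and 848 CPM in LM1 and at 884.6, 1250 and 883.2 CPM in LM9. HR1 overlapped with both LM models, and LM1 and LM9 versus HR1 came to −0.33 ± 0.20 (−0.12 without HR1 replicate 1). *Ftl1* is uncertain, since 75% of its 50-base windows also occur in 15 other genes, pseudogenes such as *Ftl1-ps1* among them, and none of these was among the genes counted. For *Fth1* that share was 3.84%. The ratio of *Fth1* to *Ftl1* per kb was 2.10 to 2.86 in HR1, 1.59 to 1.71 in LM1 and 1.46 to 2.22 in LM9, so that LM1 was below HR1 and LM9 overlapped with both. Both chains together made 4660 to 7783 CPM in HR1, 2462 to 3176 CPM in LM1 and 3605 to 4184 CPM in LM9.

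The genes of IRP2 and of the protein that removes it had fold changes of opposite sign, both under 2-fold. *Fbxl5*, whose product removes IRP2, was at 109, 82.1 and 94.7 CPM in HR1, at 54.6, 60.5 and 69.5 CPM in LM1 and at 68.1, 66.3 and 71.5 CPM in LM9. All LM tumours were below all HR1 tumours, by −0.55 ± 0.12 on the log2 scale (−0.44 without HR1 replicate 1), and LM1 overlapped with LM9. *Ireb2* was at 61.0, 50.1 and 45.7 CPM in HR1, at 54.5, 59.8 and 56.8 CPM in LM1 and at 63.4, 61.2 and 70.4 CPM in LM9. Here LM9 was above both other models, and LM1 lay between HR1 replicates. Both LM models together exceeded HR1 by 0.22 ± 0.12 on the log2 scale, and 0.35 without HR1 replicate 1, where all LM tumours were above HR1. In each tumour the ratio of *Ireb2* to *Fbxl5* CPM was 0.482 to 0.61 in HR1, 0.817 to 0.997 in LM1 and 0.923 to 0.984 in LM9. The ratio thus set all LM tumours above all HR1 tumours, HR1 replicate 1 included. *Fbxl5* shares 98 exonic bases with *Bst1* on the other strand, which was at 0.566 to 5.42 CPM.

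**Figure D3:**
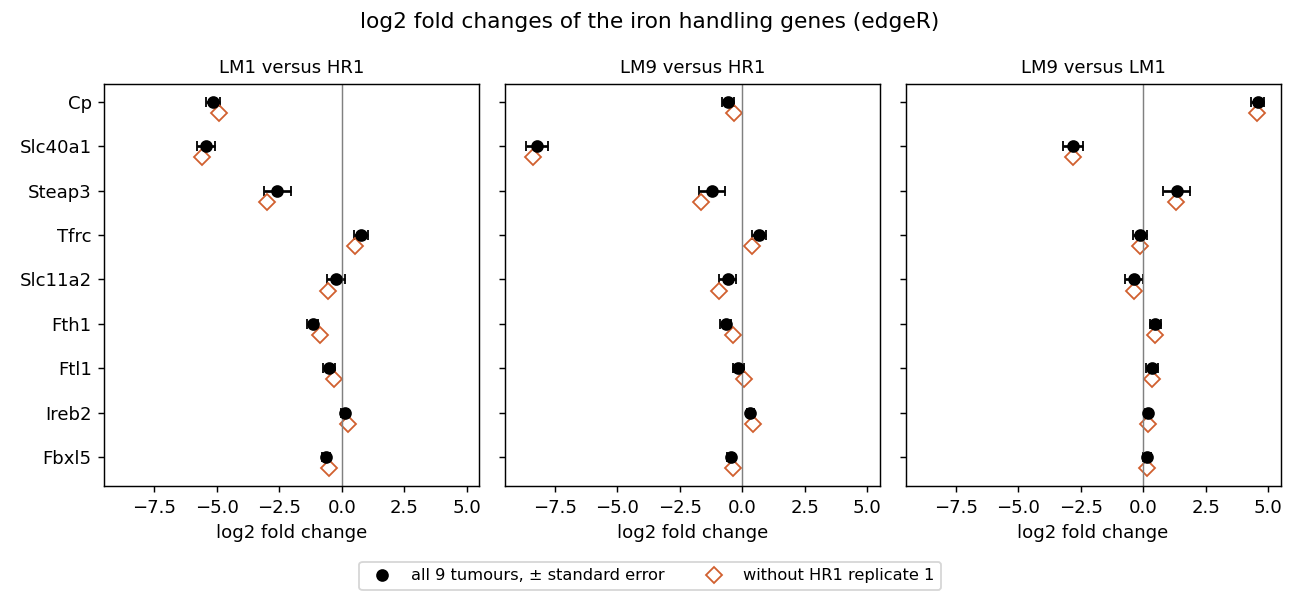
log2 fold changes of the 9 genes (x axis) in LM1 versus HR1, LM9 versus HR1 and LM9 versus LM1. Black points are the fit over 9 tumours with standard errors, and open diamonds the values without HR1 replicate 1: the *Cp* point moves from −5.14 to −0.56 between the panels for LM1 and LM9, while *Slc40a1* is at −5.42 and −8.22.

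The number of these genes past the threshold is given beside the share of all genes, and nothing is read from it, since these comparisons were known when the genes were chosen. In LM1 and LM9 versus HR1, 6 of 9 passed an adjusted p of 0.05, 1 higher (*Tfrc*) and 5 lower (*Cp*, *Steap3*, *Fth1*, *Slc40a1* and *Fbxl5*), where 43.6% of the 14086 genes tested passed. Of these, *Tfrc* no longer passed in 7 of the 9 fits that left out 1 tumour, all but those without HR1 replicate 1 or 2, and the others passed in all 9. LM1 versus HR1 gave 5 of 9 beside 35.5%, LM9 versus HR1 3 of 9 beside 42.3%, and LM9 versus LM1 2 of 9 (*Cp* and *Slc40a1*) beside 22%. Leaving out LM9 replicate 1, 2 or 3, each alone, LM9 versus HR1 gave 1 of 9 each time, beside 26.7%, 28.2% and 29.1% of all genes. Without HR1 replicate 1 the counts of the 4 comparisons became 8, 7, 6 and 4 of 9, beside 56.0%, 52.8%, 55.7% and 45.5% of all genes. Groups that did not overlap were found for 3 of 9 genes in LM1 and LM9 versus HR1, beside 29.9% of all genes. LM1 did not overlap with HR1 for 6 genes, beside 45.6%. LM9 did not overlap with HR1 for 4 genes, beside 53.2% (3 of them lower, beside 25.3%), nor with LM1 for 7, beside 63%. The median log2 fold change of the 9 genes was −0.552 in LM1 and LM9 versus HR1, against −0.0457 over all genes tested. The comparisons with HR1 share its 3 tumours.

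The other genes of the pathway were taken from 6 lists by role, chosen for function with earlier results of these tumours known, of which 71 of 77 genes were counted. In LM1 and LM9 versus HR1, 31 of 71 passed, 10 higher and 21 lower, beside 19.9% of all genes higher and 23.6% lower. Without HR1 replicate 1 it was 38 of 71, 14 higher and 24 lower, beside 56.0% of all genes. LM1 versus HR1 gave 11 higher and 16 lower, beside 16.7% and 18.7% of all genes, and LM9 versus HR1 12 higher and 21 lower, beside 20.4% and 21.9%. These totals of 27 and 33, beside 35.5% and 42.3% of all genes, came down together with the share of all genes, to 16 (23.2% of all genes) without LM1 replicate 2, and to 13, 19 and 18 (26.7%, 28.2% and 29.1% of all genes) without LM9 replicates 1, 2 and 3. The 13 of them named by rule also passed without HR1 replicate 1 in the comparison of LM1 and LM9 with HR1. All p-values are from edgeR's quasi-likelihood test, adjusted over all genes tested.

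**Figure D4:**
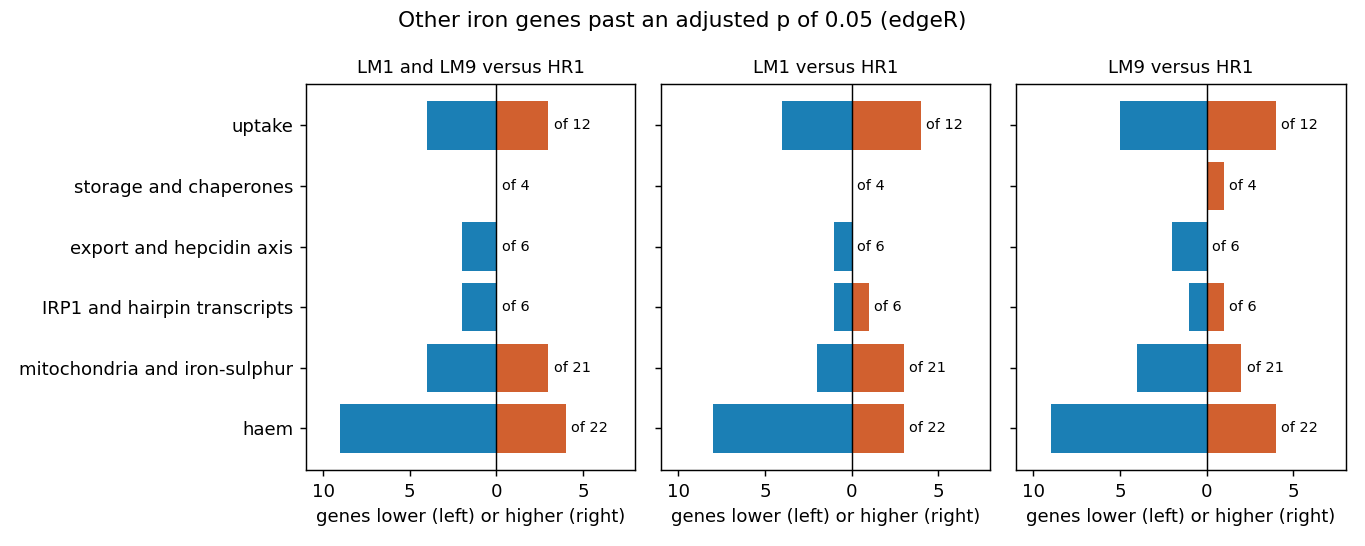
Number of other iron genes lower (blue, to the left) and higher (orange, to the right) at an adjusted p under 0.05 in each role list, for LM1 and LM9 versus HR1, LM1 versus HR1 and LM9 versus HR1, with the number of genes tested beside each bar. In LM1 and LM9 versus HR1 the haem list had 9 lower and 4 higher of 22, and the export list 2 lower of 6, beside 23.6% lower and 19.9% higher of all genes. The 3 panels share the HR1 tumours.

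Uptake genes went both ways, with 3 of 12 higher and 4 lower in LM1 and LM9 versus HR1, beside 19.9% and 23.6% of all genes. *Lcn2*, the siderophore-binding lipocalin, rose from 0.964, 1.64 and 0.18 CPM in HR1 to 33.9, 30.4 and 28.1 CPM in LM1 and 11.9, 9.73 and 6.46 CPM in LM9 (log2 fold change of LM1 and LM9 versus HR1 4.18 ± 0.60, edgeR adjusted p = 0.000938, 4.19 without HR1 replicate 1 and 4.93 without HR1 replicate 2). *Slc39a8* rose from at most 1.10 CPM in HR1 to 2.90 to 3.51 CPM in LM1 and 4.79 to 6.10 CPM in LM9, and its product ZIP8 imports metal ions (2.82 ± 0.46, adjusted p = 0.00162, 2.58 without HR1 replicate 1 and 3.65 without HR1 replicate 2). *Slc39a14*, named after its values were seen, encodes the related ZIP14 and rose from 96.6, 135 and 128 CPM in HR1 to 144.5 to 244 CPM in the LM tumours (0.71 ± 0.15, adjusted p = 0.0057, 0.59 without HR1 replicate 1). For LM9 versus HR1 alone its adjusted p was 0.0404, and it was 0.129 and 0.137 without LM9 replicates 1 and 2. *Lcn2*, *Slc39a8* and *Slc39a14* were higher in all LM tumours than in all HR1 tumours.

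*Trf*, the gene of transferrin itself, fell from 28.3, 32.5 and 4.55 CPM in HR1 to 2.79 to 3.83 CPM in LM1 and 0.641 to 1.29 CPM in LM9 (−3.61 ± 0.51, adjusted p = 0.000867, −3.37 without HR1 replicate 1). *Slc11a1*, the phagosomal metal transporter of macrophages, fell from 20.7 to 25.7 CPM in HR1 to 13.4 to 17.02 CPM in the LM tumours (−0.69 ± 0.13, adjusted p = 0.00343, −0.66 without HR1 replicate 1). Both were lower in the LM tumours, as most leukocyte markers were. HR1 replicate 3, with the lowest marker sum of HR1, was also the lowest HR1 tumour for both. Its marker sum of 253 CPM lay within the 214 to 265 CPM of LM9, while its *Trf* and *Slc11a1*, at 4.55 and 20.7 CPM, were above all LM tumours. The part of leukocytes was not tested.

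*Steap4*, a ferrireductase of the family of *Steap3*, separated the metastatic models. It was named after its values were seen. It was at 17.95, 7.61 and 3.01 CPM in HR1, at 42.6, 47.8 and 58.7 CPM in LM1 and at 1.46, 3.37 and 1.80 CPM in LM9. The log2 fold change was 2.39 ± 0.59 for LM1 versus HR1 (adjusted p = 0.014) and −4.49 ± 0.65 for LM9 versus LM1 (adjusted p = 0.00308). HR1 replicate 1 was the highest HR1 tumour, and without it LM1 versus HR1 was 3.23 and LM9 versus HR1 −1.27. Within the family, LM1 was thus lowest for *Steap3* and highest for *Steap4*. LM9 versus HR1 was −2.10 ± 0.59 (adjusted p = 0.0208), with LM9 replicate 2 overlapping HR1 replicate 3, and that call was lost without LM9 replicate 1 (adjusted p = 0.0794) and without LM9 replicate 3 (adjusted p = 0.0725).

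In the export list, which holds ferroxidases and the hepcidin pathway, 2 of 6 genes were lower and none higher, beside 23.6% and 19.9% of all genes. All 6 had log2 fold changes below 0 in LM1 and LM9 versus HR1, as had 7366 of the 14086 genes tested. *Heph* and *Bmp6* were the ones that passed as lower, both under 1 CPM on average and named after their values were seen. *Heph*, encoding hephaestin, a membrane ferroxidase related to ceruloplasmin, had 69, 7 and 30 counts in HR1, 14, 14 and 12 in LM1 and 2, 0 and 2 in LM9 (edgeR adjusted p = 0.00815 for LM1 and LM9 versus HR1). *Bmp6*, a ligand that induces hepcidin, had 8, 28 and 29 counts in HR1 and at most 3 in any LM tumour (adjusted p = 0.00168). Both also passed without HR1 replicate 1. For *Heph*, LM1 alone did not pass against HR1 (adjusted p = 0.143), with HR1 replicate 2 below the LM1 tumours in CPM, and LM9 did (adjusted p = 0.00753). Without that HR1 tumour LM1 passed too (−2.31, adjusted p = 0.0308). Its pooled log2 fold change went from −3.41 to −2.21 without HR1 replicate 1. Hepcidin itself (*Hamp*, *Hamp2*) was not analysed here. In LM1 and LM9 versus HR1, no gene of the 4 in the storage and chaperone list passed, beside 43.6% of all genes, while *Herc2* passed as higher in LM9 versus HR1 and in LM9 versus LM1.

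The list of IRP1 and other transcripts known to hold iron-responsive elements had no higher and 2 lower genes of 6, beside 19.9% and 23.6% of all genes. *Aco1*, the gene of IRP1, was named after its values were seen. It was at 103, 111 and 91.0 CPM in HR1, at 134, 143 and 153 CPM in LM1 and at 90.9, 105 and 107 CPM in LM9. LM1 was above both other models (LM1 versus HR1 0.49 ± 0.13, adjusted p = 0.0184, 0.51 without HR1 replicate 1, the call lost without LM1 replicate 2 at 0.0546 and without LM1 replicate 3 at 0.0598). *Cdc42bpa*, a kinase gene, was at 99.05, 165 and 198 CPM in HR1, 49.6 to 75.99 CPM in LM1 and 87.5 to 104 CPM in LM9 (−0.97 ± 0.21, adjusted p = 0.00688, −1.20 without HR1 replicate 1). LM1 passed against HR1 (adjusted p = 0.0066), and LM9, which overlapped with HR1, did not (adjusted p = 0.057). Without HR1 replicate 1, LM9 was below both other HR1 tumours and passed (−0.92, adjusted p = 0.00178). It also passed with DESeq2 (adjusted p = 0.0299), which made more false calls than edgeR on simulated counts (21.8% against 5.85%). *Alas2*, the first enzyme of haem synthesis in erythroid cells, was at 8.81, 5.67 and 1.13 CPM in HR1 and 0.343 to 2.10 CPM in the LM tumours (−2.58 ± 0.64, adjusted p = 0.0115, −1.96 without HR1 replicate 1). LM1 replicate 1 was above HR1 replicate 3, and LM1 alone did not pass against HR1 (adjusted p = 0.0722), though it did with DESeq2 (−2.06, adjusted p = 0.0219) and without HR1 replicate 3 (−2.53, adjusted p = 0.0167). It moved with the erythroid markers, which summed to 237, 112 and 26.2 CPM in HR1, 20.5 to 65.4 in LM1 and 6.78 to 17.6 in LM9, and their part was not tested. Over all genes, those outside the 9 with a full hairpin showed no one direction. Of 19 counted genes with one in the 5′ UTR, 2 were higher and 4 lower in LM1 and LM9 versus HR1. Of 95 with one in the 3′ UTR, 12 were higher and 19 lower, beside 19.9% and 23.6% of all genes.

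Of 21 mitochondrial and iron-sulphur cluster genes, 3 were higher and 4 lower, beside 19.9% and 23.6% of all genes. *Slc25a37*, encoding the mitochondrial iron importer mitoferrin 1, was at 15.2, 25.2 and 24.9 CPM in HR1, 31.0 to 38.2 CPM in LM1 and 53.1 to 90.8 CPM in LM9 (1.14 ± 0.24, adjusted p = 0.00494, 0.94 without HR1 replicate 1). Alone against HR1, LM9 passed (1.63 ± 0.26, adjusted p = 0.00191) and LM1 did not (0.66 ± 0.26, adjusted p = 0.0773). *Glrx5*, which takes part in cluster assembly, was lower in LM9, at 48.4 to 62.3 CPM against 90.3 to 134 CPM in HR1 (LM9 versus HR1 −1.06 ± 0.19, adjusted p = 0.00271, −1.21 without HR1 replicate 1), while LM1 overlapped with HR1. *Ciao3*, of the cytosolic assembly machinery, fell by 0.57 ± 0.15 on the log2 scale (adjusted p = 0.0142), and by 0.71 without HR1 replicate 1, a call that was lost without HR1 replicate 2 (adjusted p = 0.053).

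The haem list had 4 of 22 genes higher and 9 lower, beside 19.9% and 23.6% of all genes. *Hmox1*, haem oxygenase 1, which frees iron from haem, was at 137, 145 and 94.4 CPM in HR1, 154, 213 and 154 CPM in LM1 and 294, 310 and 292 CPM in LM9 (0.86 ± 0.18, adjusted p = 0.0048, 0.93 without HR1 replicate 1). LM9 rose over HR1 (1.25 ± 0.20, adjusted p = 0.00171). The LM1 tumours also lay above the HR1 tumours but LM1 alone did not pass (0.47 ± 0.20, adjusted p = 0.0926), and it passed without HR1 replicate 1 (0.54, adjusted p = 0.0439). *Abcg2*, an exporter that carries porphyrins among other substrates, rose from at most 2.63 CPM in HR1 to 5.46 to 12.7 CPM in the LM tumours (2.71 ± 0.61, adjusted p = 0.00752, 2.27 without HR1 replicate 1 and 3.98 without HR1 replicate 2). *Blvrb*, a biliverdin reductase, fell from 230, 87.5 and 93.2 CPM in HR1 to 19.6 to 27.3 CPM in the LM tumours (−2.59 ± 0.29, adjusted p = 0.000312, and −1.98 without HR1 replicate 1). *Fech*, ferrochelatase, which inserts iron into protoporphyrin, fell from 105, 84.9 and 94.5 CPM in HR1 to 38.4, 43.1 and 44.9 CPM in LM1 (LM1 versus HR1 −1.17 ± 0.13, adjusted p = 0.000379, −1.08 without HR1 replicate 1). In LM9 *Fech* was at 81.8 to 82.8 CPM, and LM9 versus HR1 gave −0.20 ± 0.12 (adjusted p = 0.214, −0.12 without HR1 replicate 1). *Fech* was lowest in LM1, as *Cp* was.

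The genes whose log2 CPM ran most like that of *Cp* over the 9 tumours, out of 12376 genes averaging 1 CPM or more, were *Ctns* (r = 0.996), *Klhl24* (0.989), *Glb1* (0.989), *Tecpr1* (0.987) and *Ctsa* (0.986). *Klhl24* was at 20.1 to 34.5 CPM in HR1, 2.88 to 4.21 CPM in LM1 and 19.98 to 21.9 CPM in LM9. For *Ctsa* these ranges were 447 to 543.5, 179.6 to 185 and 473 to 479 CPM. All 5 were lower in every LM1 tumour than in any other tumour. The points share 3 models and their libraries, so these r values are a description of the step at LM1.

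**Figure D5:**
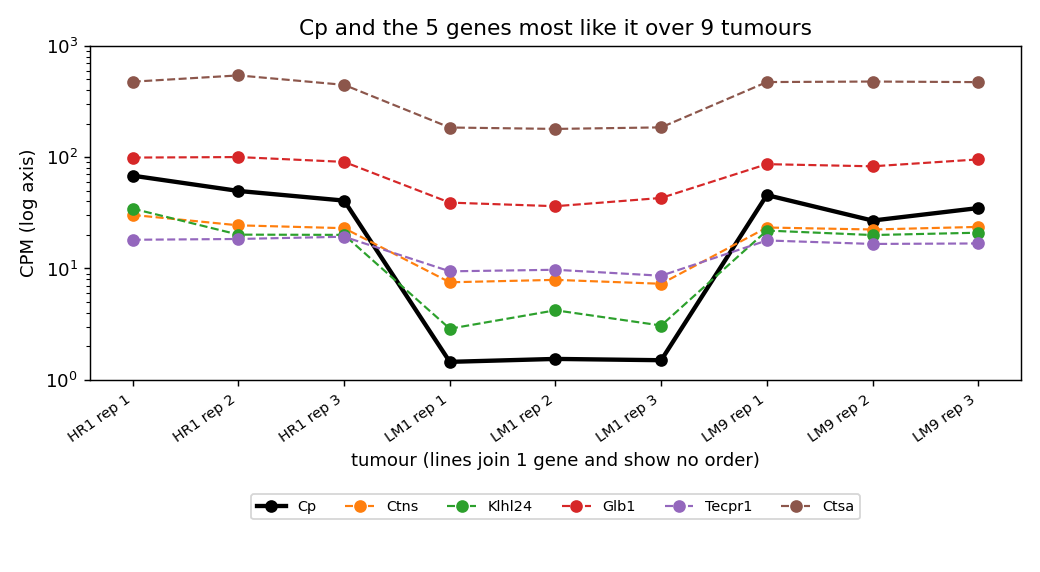
CPM (log axis) of *Cp* and of the 5 genes with the highest Pearson r to it, in each of the 9 tumours on the x axis. Lines join the values of 1 gene and show no order among tumours: each gene steps down in the LM1 tumours, *Cp* to 1.45 to 1.54 CPM.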

How the data were processed

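For each of 9 tumours the authors deposited whole-number counts per gene (Entrez number), not normalized. Per the study's methods, reads (stranded mRNA libraries, single end, 50 nt) were aligned to mm10 with STAR and 5′ ends over the exon union were counted with qCount of QuasR. Versions, strand setting and the filter are not given in the sources used here. The tables hold 14108 genes, of which 14085 were matched to a symbol in RefSeq by their Entrez number.

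The 9 genes and all lists were chosen with earlier results of these data known. Counts were scaled by TMM and tested with edgeR 4.0.16 (quasi-likelihood, robust, R 4.3.3) in 1 model of 3 groups of 3 tumours, with p-values adjusted over 14086 genes by the Benjamini-Hochberg method (threshold 0.05). edgeR stands in place of the limma-voom of the study, which was an alternative (limma 3.58.1), with DESeq2 1.42.0, other size factors and filters, only the tumours compared, the replicate number as a block and each tumour left out. On counts simulated for LM1 and LM9 versus HR1, with 200 of 14086 genes changed by a log2 fold of 2, edgeR recovered 80.5% with 5.85% false calls. The rates of limma-voom were the same, and DESeq2 recovered 93.0% with 21.8% false calls. The simulation gave all models the same spread and changed far fewer genes than passed in the data. HR1 tumours varied more than LM tumours, so these rates need not hold for the real counts. No replicates differed by as little as sampling noise. Named are the 9 genes, in each role list the 2 higher and 2 lower genes with the smallest adjusted p under 0.05 and a mean of at least 1 CPM, and the 5 genes most like *Cp*. *Slc39a14*, *Steap4*, *Heph*, *Bmp6* and *Aco1* were added after their values were seen, with their alternatives. *Ncoa4* and *Pcbp1* were looked at in the same way and, having passed in none of the comparisons, stand only in the count of their list. A gene that met the rule is not reported here. Intervals are exact, at 95%, and cover counting error only, since PCR copies cannot be told from separate molecules. Exon lengths for CPM per kb are those of basic GENCODE transcripts. Tables and figures were made with pandas 2.3.3, numpy 2.4.6, scipy 1.17.1 and matplotlib 3.10.9.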

Additional observations from a re-analysis of the deposited data

Results flagged for a closer look

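The changes from HR1 differed between LM1 and LM9 for 6 of the other iron genes named, by edgeR's test of LM9 versus LM1, which is the difference of both changes from HR1. In that test 18 of the 71 other iron genes and 22% of all genes passed, and *Steap4* and *Aco1* were named after their values were seen. On the log2 scale the difference was −4.49 ± 0.65 for *Steap4* (adjusted p = 0.00308), 0.966 ± 0.126 for *Fech* (adjusted p = 0.00208), −0.877 ± 0.186 for *Glrx5* (adjusted p = 0.013), 0.783 ± 0.196 for *Hmox1* (adjusted p = 0.0235), −0.507 ± 0.13 for *Aco1* (adjusted p = 0.0258) and 0.97 ± 0.259 for *Slc25a37* (adjusted p = 0.0295). The calls of *Steap4* and *Fech* held when any 1 tumour was left out. The calls of *Hmox1*, *Aco1*, *Glrx5* and *Slc25a37* were lost without single LM tumours, with adjusted p up to 0.101, 0.112, 0.0631 and 0.114. *Slc25a37* without LM9 replicate 1, its highest tumour, gave 0.691.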

How the results depend on the processing

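The log2 fold changes of the 9 genes moved by less than the spread of the tumours in 636 of 639 alternative values, and the other 3 were those of *Fth1* without HR1 replicate 1. Leaving out 1 of 3 tumours can hardly move a group mean by more than that spread, so this count does not show how firm the values are. The move of *Steap3* in LM1 and LM9 versus HR1, from −1.90 to −1.18 without HR1 replicate 2, was counted as within it. The sign of the fold change turned for *Slc11a2* without HR1 replicate 2 (0.0656 for LM1 and LM9 versus HR1, 0.249 for LM1 versus HR1) and for *Ftl1* in LM9 versus HR1 without HR1 replicate 1 (0.0584). Leaving out 1 tumour at a time, genes past the threshold ranged from 4928 to 7902 for LM1 and LM9 versus HR1, from 3121 to 7453 for LM1 versus HR1, from 3768 to 7862 for LM9 versus HR1 and from 1150 (without LM1 replicate 1) to 6413 (without HR1 replicate 1) for LM9 versus LM1. Of the 9 genes, 1 (without LM9 replicate 1, 2 or 3, each alone) to 6 (without HR1 replicate 1) passed in LM9 versus HR1, and 2 to 4 (without HR1 replicate 1) in LM9 versus LM1. Of the 71 other iron genes, 16 (without LM1 replicate 2) to 37 passed in LM1 versus HR1, 13 (without LM9 replicate 1) to 42 in LM9 versus HR1, and 4 (without LM1 replicate 1) to 34 (without HR1 replicate 1) in LM9 versus LM1. A fit of only the tumours compared called 3008 genes in LM1 versus HR1 and 7709 in LM9 versus LM1. It called 1 of the 9 genes in LM9 versus HR1 and 5 in LM9 versus LM1, and 14, 18 and 38 of the other iron genes in LM1 versus HR1, LM9 versus HR1 and LM9 versus LM1. HR1 varied most, and this fit takes the spread from fewer tumours.

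Replicate numbers in the labels run from 1 to 3 within a model, but tumours of the same number did not deviate together (r of deviations −0.112 to 0.161 over 9 pairs), so the numbers were not taken to pair them. With the replicate block, 1 of the 9 genes passed in LM9 versus HR1 in place of 3, and 5234 in place of 6138 genes in LM1 and LM9 versus HR1. Some log2 fold changes that had not passed the threshold turned in sign. In LM9 versus LM1 without LM1 replicate 3, *Blvrb* came to 0.0122 (−0.219 to 0.0122 over the tumours left out in turn) and *Bmp6* to 1.24 (−0.614 to 1.24). *Bmp6* in the same comparison came to 0.327 with limma-voom, 0.0586 with the replicate block, and 0.0472 and 0.0813 without LM9 replicates 2 and 3. *Aco1* in LM9 versus HR1 came to 0.0568 without HR1 replicate 2 and 0.0581 without LM9 replicate 1 (−0.0876 to 0.0581). *Steap4* in LM1 and LM9 versus HR1 came to −0.284 without HR1 replicate 3 and −0.0802 without LM9 replicate 2 (−0.284 to 0.979). The cause was not tested. Depth limits *Slc40a1* in LM9 and *Bmp6* in the LM tumours, where single counts move the fold.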
